A study of Mus musculus with 6 samples.

Results

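Marker genes of dendritic cells were read in RNA from macrophages sorted from the fat of mice fed a high-fat diet (HFD), either alone or together with MGIG (magnesium isoglycyrrhizinate, a compound derived from liquorice). The 10 markers are Fscn1, Ccr7, Ccl22 and Ccl17 of mature dendritic cells, Flt3 and Zbtb46 of all conventional dendritic cells, Cd209a of the cDC2 class, and Xcr1, Clec9a and Batf3 of the cDC1 class. They were found by symbol among the 57180 Ensembl genes of the deposited table, and all 10 passed the filter on low counts. The list was chosen by marker role and, for Fscn1, by its difference in counts between the groups of this same table, which was already known. The members' differences between groups are therefore a description, given with standard errors and without p-values.

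The samples were 3 libraries labelled HFD and 3 labelled HFD+MGIG, all from white adipose tissue of wild-type (WT) animals, so the HFD libraries are the untreated controls and no lean group enters the comparison. The series' design text names a sort for F4/80 and CD11b, while the extraction protocol speaks of tissue. Dose, duration, age and strain are not given in the labels, nor is it stated whether the libraries of a group stem from different animals, so errors and p-values measure how far these libraries spread, and that spread may be technical. Total counts were 14437531 to 16740374 in HFD and 2214367 to 4904167 in HFD+MGIG.

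Dendritic cells carry antigen from tissue to lymph node and present it to T cells. The cDC1 class depends on the transcription factor BATF3 and displays the chemokine receptor XCR1 and the dead-cell receptor CLEC9A, while the cDC2 class usually carries CD11b. On maturation both classes turn on a shared programme that includes the homing receptor CCR7, the actin bundler fascin and the chemokines CCL17 and CCL22. Adipose macrophages and dendritic cells share many surface proteins, CD11b and MHC class II among them, so a CD11b gate can hold cDC2 cells and would usually leave out cDC1 cells.

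Fscn1 had the largest fold change of the 10 members in the TMM fit, with a mean of 31.7 ± 9.04 CPM (counts per 1000000 of the library total; SD, n = 3) without MGIG and of 4.59 ± 1.49 CPM with it, a ratio of means of 6.91. The other mature markers did not move by the same amount: Ccr7 was at 105 ± 27.2 and 50.4 ± 20.8 CPM, and Ccl22 at 54.4 ± 16.1 and 36.9 ± 16.1 CPM. Cd209a, the most abundant member per length of transcript, was at 246 ± 29.2 and 186 ± 43.9 CPM. Xcr1 went the other way, at 2.63 ± 0.348 and 16 ± 10.9 CPM, and with libraries thinned to 1 total its log2 fold change (2.73) was larger in size than that of Fscn1 (−2.39). Bulk RNA cannot tell fewer dendritic cells from less of a transcript in each cell.

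The libraries of the 2 groups also differed in composition. Olfactory, vomeronasal and taste receptor, keratin-associated protein and beta-defensin genes, 1596 protein-coding genes taken here as silent in macrophages, held 0.0624% to 0.280% of counts in HFD and 2.93% to 6.42% in HFD+MGIG. A background bound was set from them for each gene and library, as their 90th percentile of CPM per kilobase of exon multiplied by the exon length of the gene. HFD+MGIG 2 stood apart, with the smallest total, the highest silent-family share and 62.4% of counts on protein-coding genes, against 78.9% and 82.7% in HFD+MGIG 3 and 1 and 95.0% to 96.1% in HFD. All 10 members were above their bounds in every HFD library, 3 were above them in every HFD+MGIG library (Ccr7, Ccl22 and Cd209a), and 5 were above them in no HFD+MGIG library (Fscn1, Flt3, Xcr1, Clec9a and Batf3).

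**Figure D1:**
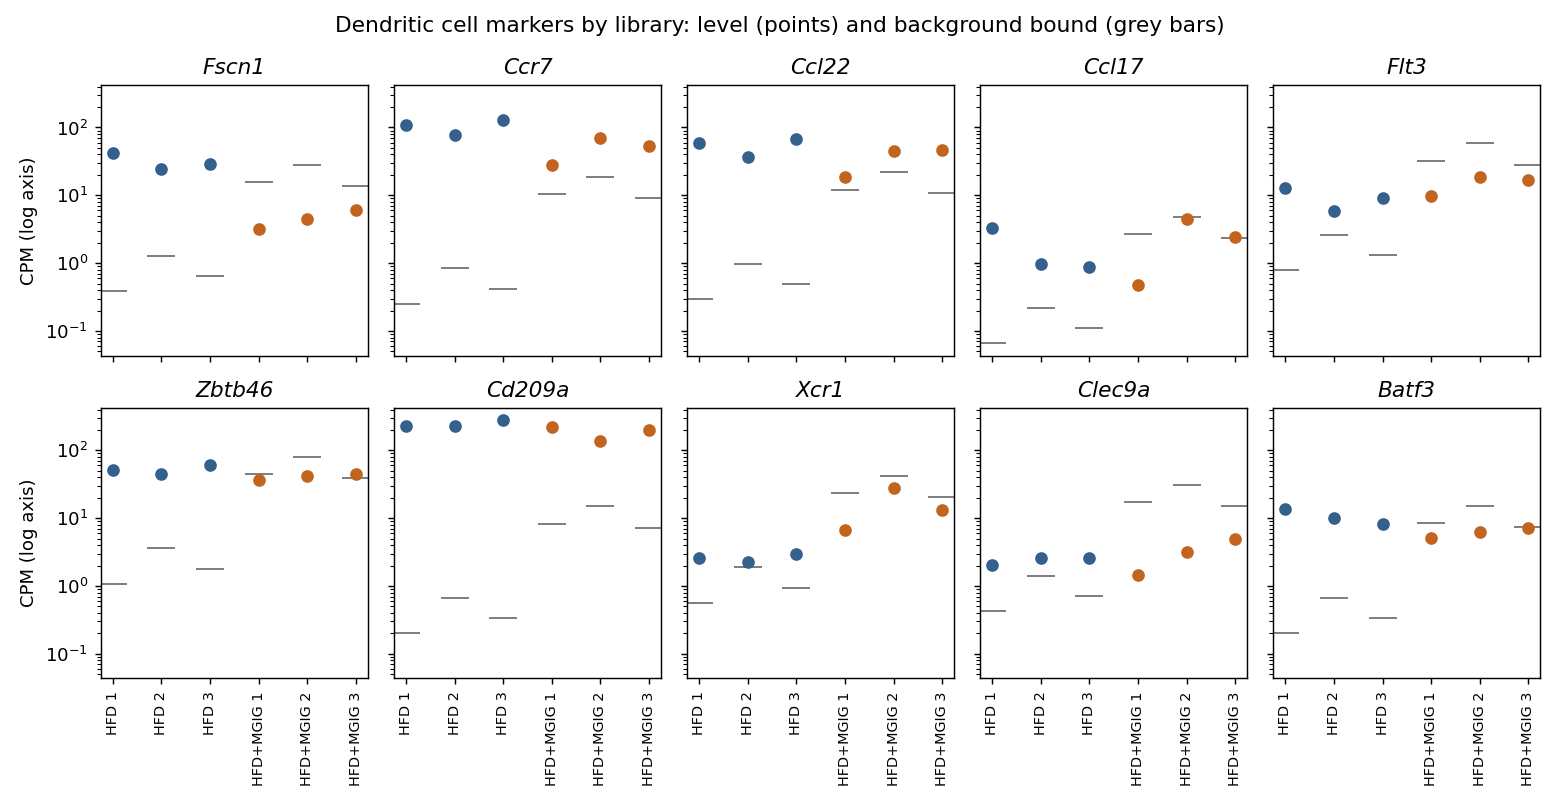
Level of each dendritic cell marker in CPM (log axis) in each of the 6 libraries, blue points for HFD and orange points for HFD+MGIG, with a grey bar at the background bound of that gene and library. In HFD+MGIG the bars rise by more than the points change, and Fscn1 lies under its bar in all 3 libraries while Cd209a lies well above its own.

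Differences between groups were fitted across 23053 genes with edgeR's quasi-likelihood test, in which 60.8% of the genes passed a Benjamini-Hochberg adjusted p of 0.05, 17.8% lower and 43.0% higher with MGIG. Against that background, 4 of the 10 members were on the lower side of this threshold (Fscn1, Ccr7, Ccl22 and Batf3), 1 was on the higher side (Xcr1), and 5 were not past it. The members' contrast was known when they were chosen, so nothing is read from these counts. CPM did not overlap between the groups for 5 members lower with MGIG and 1 higher, where 23.7% and 48.9% of all tested genes did the same. The median log2 fold change of the members was −0.69, against 0.38 over all tested genes and −0.91 over 2604 background-limited genes, that is, spliced protein-coding genes (2 or more exon blocks) whose bound is no more than 0.25 of their mean CPM. In the fit over all genes 43.0% of these were lower and 2.11% higher. Scaled and fitted on their own, 6.26% were lower and 4.49% higher, and 0 of the 3 members among them (Ccr7, Ccl22 and Cd209a) passed in either direction. With library totals in place of TMM factors the medians of all tested and of background-limited genes were 0.71 and −0.63, and 2529 genes were lower and 10381 higher, against 4109 and 9902. Only Fscn1, Ccr7 and Batf3 had a fold change below the median of the background-limited genes in the TMM fit.

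Among the mature markers, Fscn1 (ENSMUSG00000029581; mm10 chromosome 5, 142960343 to 142973185, plus strand) encodes fascin, which bundles actin in the long processes of mature dendritic cells. It had 41.8, 24.2 and 29.1 CPM in HFD 1, 2 and 3, from 699, 350 and 469 counts, and 3.13, 4.52 and 6.12 CPM in HFD+MGIG 1, 2 and 3, from 13, 10 and 30 counts. The lowest HFD library was thus above the highest HFD+MGIG library. The log2 fold change was −3.06 (SE 0.352), and it ranged from −3.37 to −2.91 as each library was left out, with −3.00 without HFD+MGIG 2. With every library thinned to 2214367 counts, Fscn1 kept 93, 46 and 45 counts in HFD against 7, 10 and 15 in HFD+MGIG, so the groups did not overlap at an equal library total either, although the protein-coding share of that total still differed. The HFD+MGIG values were 0.199, 0.159 and 0.443 times their bounds of 15.7, 28.3 and 13.8 CPM, so the Fscn1 reads left in these libraries could not be told apart from the level on silent families. Of the 3 HFD+MGIG libraries, HFD+MGIG 3 alone had Fscn1 above the median of silent families.

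The proximal promoters of 3 members are shown because these genes were lower (Fscn1), not called (Cd209a) and higher (Xcr1) in the same libraries. The sequences are from RefSeq (GRCm38.p6), which held 9 of the 10 members, run from 250 bases before the start to 10 bases after it, and are on the strand of the gene. Capitals mark a cAMP response element (TGACGTCA) and a TATA box (TATAAA) in Fscn1, and an Ets-IRF composite element (found on the opposite strand) in Cd209a.
Fscn1, chr5:142960105-142960364, plus strand: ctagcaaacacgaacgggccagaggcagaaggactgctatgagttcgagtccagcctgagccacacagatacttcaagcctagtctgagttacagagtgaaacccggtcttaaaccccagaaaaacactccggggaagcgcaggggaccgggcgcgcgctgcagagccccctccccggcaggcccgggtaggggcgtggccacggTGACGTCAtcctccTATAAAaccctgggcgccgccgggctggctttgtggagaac
Cd209a, chr8:3748975-3749234, minus strand: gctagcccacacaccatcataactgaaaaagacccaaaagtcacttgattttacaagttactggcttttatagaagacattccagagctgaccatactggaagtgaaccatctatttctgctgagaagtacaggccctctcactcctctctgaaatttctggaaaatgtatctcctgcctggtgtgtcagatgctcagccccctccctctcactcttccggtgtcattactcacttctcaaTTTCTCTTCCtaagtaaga
Xcr1, chr9:123862020-123862279, minus strand: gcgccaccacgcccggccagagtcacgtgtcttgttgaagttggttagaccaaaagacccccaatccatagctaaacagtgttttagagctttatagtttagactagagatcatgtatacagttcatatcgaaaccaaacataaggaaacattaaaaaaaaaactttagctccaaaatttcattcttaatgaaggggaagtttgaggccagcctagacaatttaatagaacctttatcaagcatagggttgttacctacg

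Other motifs were searched in the same way in the full 300-base promoters of 9 members, on both strands except for the TATA box, which was read on the strand of the gene. The motifs were the NF-kappaB consensus, the PU.1 core GAGGAA, the AP-1 site TGANTCA and the interferon-stimulated response element, with the cAMP response element added after the Fscn1 sequence had been seen. In Fscn1 the cAMP response element began at −45 and the TATA box at −31 from the start, and 1.80% and 8.28% of the 32544 distinct promoters held these letters. The Ets-IRF composite of Cd209a spans −9 to the start, and 2.73% of promoters held that motif. A PU.1 core stood in Batf3 and Ccl17 (28.1% of promoters), and an AP-1 site in the Zbtb46 window (7.79%). That window, chromosome 2 from 181424339 to 181424638, lies inside the gene, whose minus-strand span begins at 181459426. It is therefore not the promoter at the outer start of Zbtb46. No member's window held the NF-kappaB consensus or the interferon-stimulated response element, which 4.53% and 3.45% of promoters held. These are matches of letters and say nothing of binding.

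Ccr7 (ENSMUSG00000037944; mm10 chromosome 11, 99144196 to 99155077) encodes the receptor that guides mature dendritic cells to lymph nodes. It had 109, 76.7 and 131 CPM in HFD 1, 2 and 3, against 28.2, 69.5 and 53.4 CPM in HFD+MGIG 1, 2 and 3. The groups did not overlap, but HFD+MGIG 2 came close to HFD 2. The log2 fold change was −1.42 (SE 0.367), and on the scale of the background-limited genes, to which Ccr7 belongs, it was −0.25 (SE 0.528). Its HFD+MGIG values were 2.73, 3.74 and 5.90 times their bounds, so its reads stand above those on silent families in every library.

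Ccl22 (ENSMUSG00000031779; mm10 chromosome 8, 94745590 to 94751699) encodes a chemokine that draws CCR4-bearing T cells. Its values were 59.7, 36.3 and 67.3 CPM in HFD 1, 2 and 3, against 18.3, 45.2 and 47.1 CPM in HFD+MGIG 1, 2 and 3. HFD+MGIG 2 and 3 were above HFD 2, so the groups overlapped. The log2 fold change of −0.90 (SE 0.363) became 0.22 (SE 0.529) on the scale of the background-limited genes, so the direction depends on the scaling. Ccl17 (mm10 chromosome 8, 94810453 to 94812036), which encodes the other CCR4 ligand, was near the detection limit, with 56, 14 and 14 counts in HFD against 2, 10 and 12 counts in HFD+MGIG. These were 3.35, 0.970 and 0.870 CPM and 0.482, 4.52 and 2.45 CPM, and the groups overlapped (log2 fold change 0.11, SE 0.799). Cx3cl1, the chemokine gene that lies between Ccl22 and Ccl17 on chromosome 8, fell from 25.0 ± 3.24 to 9.25 ± 1.10 CPM (log2 fold change −1.77, SE 0.302, edgeR adjusted p = 0.000375), below its mean bound of 25.2 CPM in HFD+MGIG.

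Ratios of counts within a library do not depend on any scaling. Fscn1 per Ccr7 was 0.383, 0.316 and 0.223 in HFD 1, 2 and 3, against 0.111, 0.0649 and 0.115 in HFD+MGIG 1, 2 and 3, a ratio of means of 3.17 without overlap. Ccl22 per Ccr7 was instead higher with MGIG, at 0.512 ± 0.0373 and 0.727 ± 0.134, also without overlap. Relative to Ccr7, then, Fscn1 was lower and Ccl22 higher in every HFD+MGIG library than in any HFD library.

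**Figure D2:**
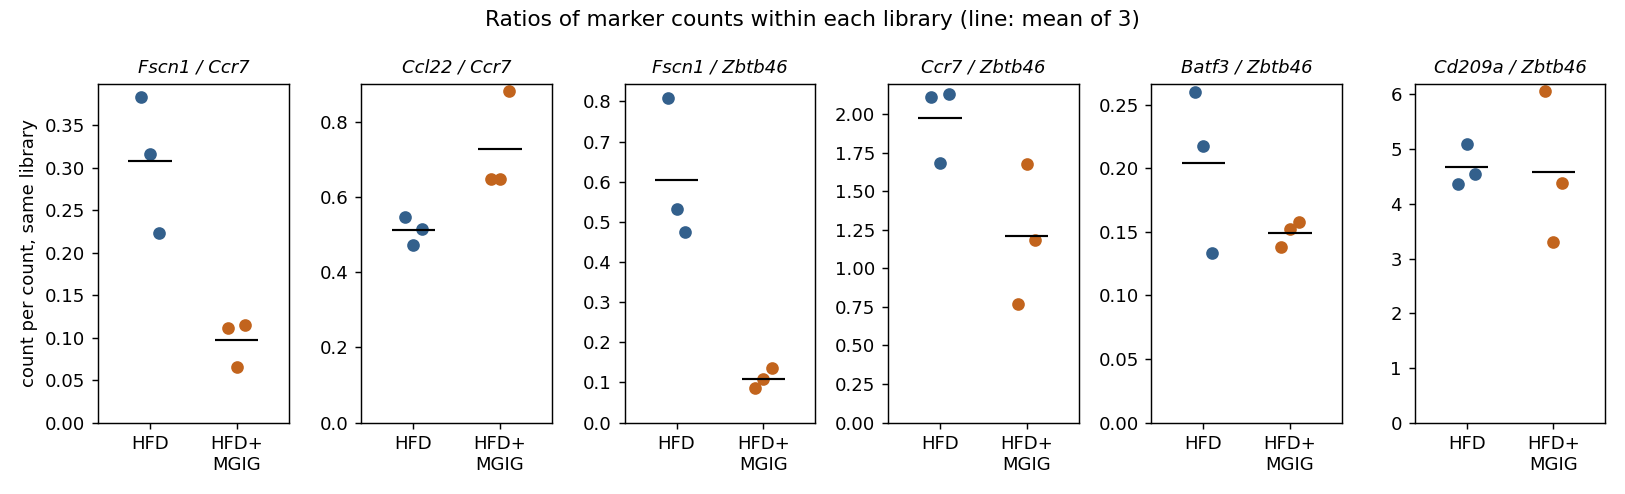
Counts of a marker per count of a second marker in the same library, for 6 pairs, with 3 points per group (blue HFD, orange HFD+MGIG) and a line at the mean. Fscn1 per Ccr7 and Fscn1 per Zbtb46 do not overlap between the groups, while Batf3 and Cd209a per Zbtb46 do.

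Of the genes shared by conventional dendritic cells, Zbtb46 (ENSMUSG00000027583; mm10 chromosome 2, 181387762 to 181459426) encodes a transcription factor that separates them from macrophages. It had 51.7, 45.5 and 61.4 CPM in HFD 1, 2 and 3, against 36.6, 41.5 and 45.3 CPM in HFD+MGIG 1, 2 and 3. HFD 2 and HFD+MGIG 3 lay next to each other, so the groups were separate by a narrow margin (log2 fold change −0.68, SE 0.284). With 8508 bases of exon its bound was large, and its level was above it in HFD+MGIG 3 alone. Fscn1 per Zbtb46 was 0.605 ± 0.178 in HFD and 0.110 ± 0.0248 in HFD+MGIG without overlap, and Cd209a per Zbtb46 was 4.67 ± 0.383 and 4.58 ± 1.39 with overlap. Per count of the sort gene Itgam, Fscn1 overlapped between the groups (0.137 ± 0.063 and 0.0592 ± 0.0509), while Cd209a was higher with MGIG without overlap (1.02 ± 0.127 and 2.08 ± 1.25). The highest of both ratios with MGIG, 0.116 and 3.52, came from HFD+MGIG 2. There the denominator Itgam, at 38.8 CPM, was below its bound, against 167 and 144 CPM in HFD+MGIG 1 and 3. Cd209a per Itgam was 1.33 and 1.38 in HFD+MGIG 1 and 3, beside 1.13 in HFD 1, the highest HFD value.

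Flt3 (ENSMUSG00000042817; mm10 chromosome 5, 147330741 to 147400489) encodes the receptor for the growth factor that maintains dendritic cells. It had 12.8, 5.82 and 9.01 CPM in HFD 1, 2 and 3, against 9.88, 18.5 and 16.9 CPM in HFD+MGIG 1, 2 and 3. The groups overlapped (log2 fold change 0.39, SE 0.362), and every HFD+MGIG value was below its bound, so the direction of Flt3 could not be read above background.

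Cd209a (ENSMUSG00000031494; mm10 chromosome 8, 3743397 to 3748984) encodes a C-type lectin of cDC2 and monocyte-derived dendritic cells. It had 226, 232 and 279 CPM in HFD 1, 2 and 3, against 222, 137 and 198 CPM in HFD+MGIG 1, 2 and 3. HFD+MGIG 1 lay just under HFD 1, and HFD+MGIG 2 was the lowest. The log2 fold change was −0.69 (SE 0.417), −0.47 without HFD+MGIG 2 and 0.30 (SE 0.143) on the scale of the background-limited genes. Its HFD+MGIG values were 26.8, 9.19 and 27.4 times their bounds, the widest margin of the 10 members.

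The cDC1 markers were sparse. Batf3 (ENSMUSG00000026630; mm10 chromosome 1, 191097847 to 191108945) encodes the leucine zipper factor required for the class. It had 13.4, 9.90 and 8.20 CPM in HFD 1, 2 and 3, against 5.06, 6.32 and 7.14 CPM in HFD+MGIG 1, 2 and 3. The groups did not overlap (log2 fold change −1.07, SE 0.381), the HFD+MGIG values were below their bounds, and Batf3 per Zbtb46 overlapped between the groups.

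Xcr1 (ENSMUSG00000060509; mm10 chromosome 9, 123852315 to 123862029) had 2.63, 2.29 and 2.98 CPM in HFD 1, 2 and 3, against 6.75, 28.0 and 13.3 CPM in HFD+MGIG 1, 2 and 3. The highest value was in HFD+MGIG 2, the library with the most silent-family reads, and all 3 HFD+MGIG values were 0.290 to 0.668 times their bounds. The log2 fold change was 2.19 (SE 0.479), and 1.66 without HFD+MGIG 2. Of the 50-base stretches of its transcripts, 1.63% also occur in transcripts of other genes, and Xcr1 was the only member whose deposited value was fractional in all 6 libraries. Clec9a (ENSMUSG00000046080; mm10 chromosome 6, 129408862 to 129424763) had 2.03, 2.56 and 2.55 CPM in HFD 1, 2 and 3, against 1.45, 3.16 and 4.89 CPM in HFD+MGIG 1, 2 and 3. The groups overlapped, its HFD+MGIG values were below their bounds, and 184 exon bases are shared with Clec1b on the same strand.

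**Figure D3:**
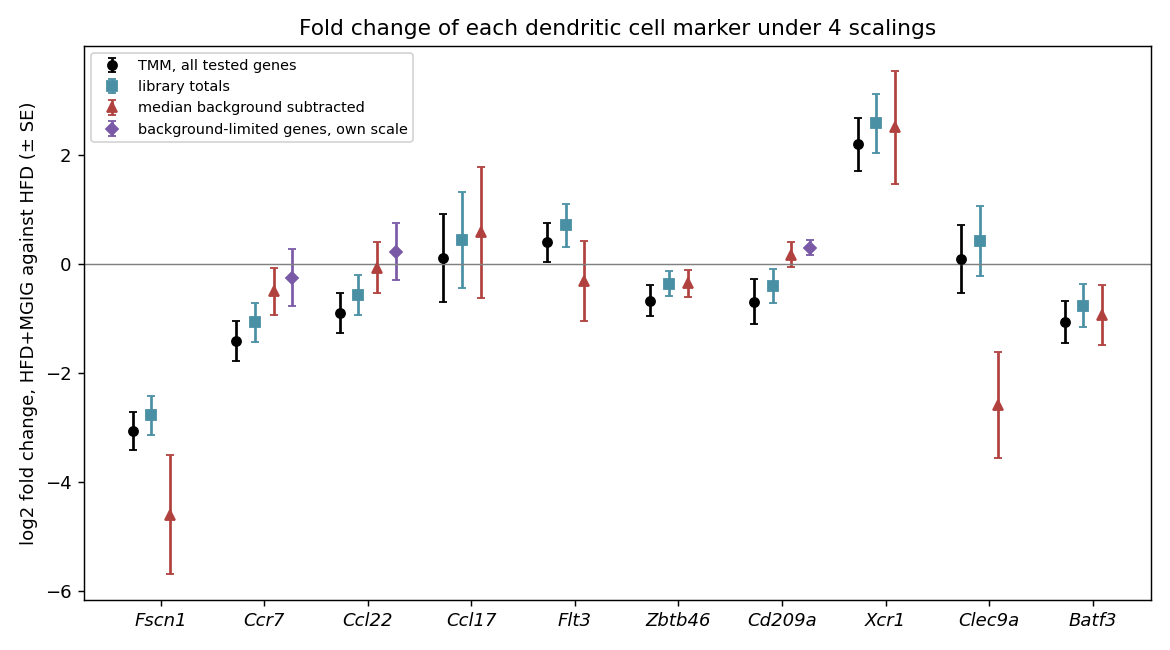
log2 fold change of HFD+MGIG against HFD for each marker (points, with SE bars) under 4 scalings, of which the background-limited fit holds 3 of the markers. Fscn1 lies below −2 under the 3 scalings that hold it, while Ccl22, Cd209a, Flt3 and Clec9a cross 0 between scalings.

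Per kilobase of exon the order of the members in HFD ran from Cd209a (155 ± 18.4 CPM per kb) through Ccr7 (53.3 ± 13.7), Ccl22 (23.4 ± 6.94) and Fscn1 (10.5 ± 3.00) to Batf3 (6.58 ± 1.67) and Zbtb46 (6.21 ± 0.940). Below them came Ccl17 (3.36 ± 2.73 CPM per kb), Flt3 (1.49 ± 0.565), Clec9a (0.723 ± 0.0919) and Xcr1 (0.591 ± 0.0781). Batf3 and Zbtb46 were closer to each other than their SDs, and Ccl17 and Flt3 differed by less than the SD of Ccl17. In HFD+MGIG Cd209a, Ccr7 and Ccl22 held the leading places, at 117 ± 27.8, 25.5 ± 10.5 and 15.9 ± 6.92 CPM per kb, while Fscn1 had place 9 of 10 at 1.52 ± 0.496 CPM per kb. The other members lay between 0.962 and 4.84 CPM per kb there, beside 90th percentiles of 4.58 to 9.41 CPM per kb for the silent families.

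The label was checked against the macrophage genes of the sort. The gene of F4/80, Adgre1, was measured at 515 ± 41.2 CPM without and 283 ± 132 CPM with MGIG (edgeR adjusted p = 0.0735), and the gene of CD11b, Itgam, at 245 ± 62.3 CPM without and 117 ± 68.4 CPM with it (edgeR adjusted p = 0.0547). Neither passed in the TMM fit, but both passed as lower with DESeq2 (adjusted p = 0.0229 for Adgre1 and 0.032 for Itgam), with limma voom (adjusted p = 0.00302 and 0.00387) and without HFD+MGIG 2 (edgeR adjusted p = 0.007 and 0.0062). In all, Adgre1 passed in 4 of 16 alternatives and Itgam in 7. Itgax, which encodes CD11c, the usual surface marker of dendritic cells, was at 14.5 ± 2.84 CPM in HFD. Of 15 macrophage identity genes 15 were above their bounds in each HFD library, and 15, 13 and 15 in HFD+MGIG 1, 2 and 3. Their summed levels were 17378 to 19466 CPM in HFD and 7353 to 18888 CPM in HFD+MGIG, the lowest in HFD+MGIG 2. The TMM fit called 0 of the 15 in either direction. Among 5 relatives of Cd209a (Cd209b and Cd209d to Cd209g) the group means ran from 11.8 to 688 CPM in HFD and from 13.9 to 609 CPM in HFD+MGIG, with log2 fold changes of −0.50 to −0.07 and 0 called in edgeR. These leave out Cd209c, which was called higher (3.26, edgeR adjusted p = 0.0001) and is described under other observations. No 50-base stretch of Cd209a occurs in another gene's transcripts, while Cd209f and Cd209g share 646 such stretches.

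Beyond the 10 members, 119 other genes were listed, namely dendritic cell genes, chemokine and growth factor ligands and receptors, and relatives of Fscn1, Cd209a and Batf3. Of the 110 tested, edgeR called 33 lower (30%) and 10 higher (9.09%), and 67 were not called. Among all protein-coding genes outside the silent families, 26.8% were lower and 21.0% higher. The median log2 fold change of the list was −0.68, beside −0.91 over the background-limited genes. The fit of background-limited genes alone held 34 of the list genes, of which 1 was lower and 3 higher, with a median of 0.03. It held 12 of the 33 lower genes, and 1 of these 12 was lower there.

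Of 29 tested genes of the maturation programme, 10 were lower and 0 higher. Serpinb9, which encodes an inhibitor of granzyme B, fell from 75.4 ± 1.68 to 32.9 ± 3.92 CPM (log2 fold change −1.52, SE 0.292, edgeR adjusted p = 0.000758). Cd200, an inhibitory ligand, fell from 116 ± 18.2 to 49.9 ± 9.11 CPM, and Aldh1a2, an enzyme of retinoic acid synthesis, from 41.3 ± 6.66 to 20.5 ± 7.86 CPM (edgeR adjusted p = 0.00319 and 0.00723). Tmem123, a membrane mucin, fell from 387 ± 54.8 to 188 ± 13.0 CPM (edgeR adjusted p = 0.0118), a call lost in 5 of 16 alternatives. Each of these genes had an HFD+MGIG mean above its bound, and 0 of the 11 genes of this programme that are background-limited, 5 of the 10 lower genes among them, were called in the fit of those genes alone.

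Of 25 genes shared by conventional dendritic cells, 7 were lower and 3 higher. Itgax (−1.65, edgeR adjusted p = 0.00733) and Ciita, the master switch of MHC class II genes (−1.35, edgeR adjusted p = 0.0052), fell, and both had HFD+MGIG means below their bounds. Bcl11a, a lymphoid and dendritic cell transcription factor, and Rab30, a small GTPase, were higher (3.63 and 1.74, edgeR adjusted p = 6.1e-05 and 0.00182), also below their bounds of 84.4 and 61.8 CPM.

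Of 17 tested cDC1 genes 5 were lower and 3 higher. Wdfy4, needed for cross-presentation, fell from 19.9 ± 1.81 to 9.68 ± 1.11 CPM (edgeR adjusted p = 0.00249), and Cxcl9, a chemokine for T cells, from 45.6 ± 3.05 to 27.2 ± 6.02 CPM (edgeR adjusted p = 0.0068). Tlr3, a sensor of double-stranded RNA, fell as well (−1.38, edgeR adjusted p = 0.016). The HFD+MGIG means of Wdfy4 and Tlr3 were below their bounds of 67.6 and 33.4 CPM, and that of Cxcl9 was above its bound of 19.3 CPM. Gcsam rose from 1.52 ± 0.522 to 11.0 ± 7.31 CPM (edgeR adjusted p = 0.00271), below its bound of 21.9 CPM.

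Of 14 tested cDC2 genes 4 were lower and 0 higher. These were the transcription factors Irf4 and Klf4, the receptor Notch2, and Esam, an adhesion protein that also stands in the endothelial list (edgeR adjusted p = 0.0227, 0.036, 0.0311 and 0.00806). The call was lost in 4 of 15 alternatives for Irf4, in 8 of 16 for Klf4, in 5 of 15 for Notch2 and in 1 of 16 for Esam. Esam was the 1 list gene lower on the background-limited scale (−0.73, SE 0.140, edgeR adjusted p = 0.0144). Clec10a, a galactose lectin of cDC2 cells and macrophages, chosen after its values were seen, had 452 ± 34.4 and 492 ± 223 CPM (−0.14, edgeR adjusted p = 0.816) and 0.75 on the background-limited scale (edgeR adjusted p = 0.0226).

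Of 8 tested plasmacytoid dendritic cell genes 2 were lower and 2 higher. Bst2, a virus-restricting membrane protein, and Ly6d fell (−0.91 and −2.40, edgeR adjusted p = 0.0484 and 0.00521), and Bst2 had 0.00461 on the background-limited scale and kept its call in 6 of 16 alternatives. Ly6d is also expressed in stratified epithelium, and its highest value, 28.0 CPM, was in HFD 1, as were those of the keratins given below. Ccr9 and Runx2 were higher (2.83 and 2.37, edgeR adjusted p = 0.000298 and 0.00129), with means below their bounds.

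Of 12 chemokine and growth factor ligands and receptors, 5 were lower and 1 higher. Not all of them act with a member, and Csf2ra, Csf2rb and Cx3cl1 among the lower genes do not. Ccl21a and Ccl19, which encode the ligands of CCR7 made by lymphatic vessels and lymph node stroma, fell from 16.9 ± 2.78 to 6.80 ± 6.38 CPM and from 10.3 ± 2.89 to 3.72 ± 2.46 CPM (edgeR adjusted p = 0.00958 and 0.0118). The HFD+MGIG mean of Ccl19 was below its bound of 5.55 CPM. Ccl21a overlapped between the groups, with 14.0 CPM in HFD+MGIG 2 and 13.7 CPM in HFD 1. Ccl21a has near-identical copies in the mouse genome, so its counts are uncertain, and its call was lost in 5 of 16 alternatives. Csf2rb, a chain of the GM-CSF receptor, fell (−1.20, edgeR adjusted p = 0.0187), and Ccr4, the receptor for CCL17 and CCL22, was higher (3.58, edgeR adjusted p = 0.00298) at 6.30 ± 3.99 CPM against a bound of 19.8 CPM. Of 8 tested relatives of Cd209a and Batf3, 0 were lower and 1 higher (Cd209c). Fscn2 and Fscn3, the relatives of Fscn1, did not pass the filter on low counts and were not tested.

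**Figure D4:**
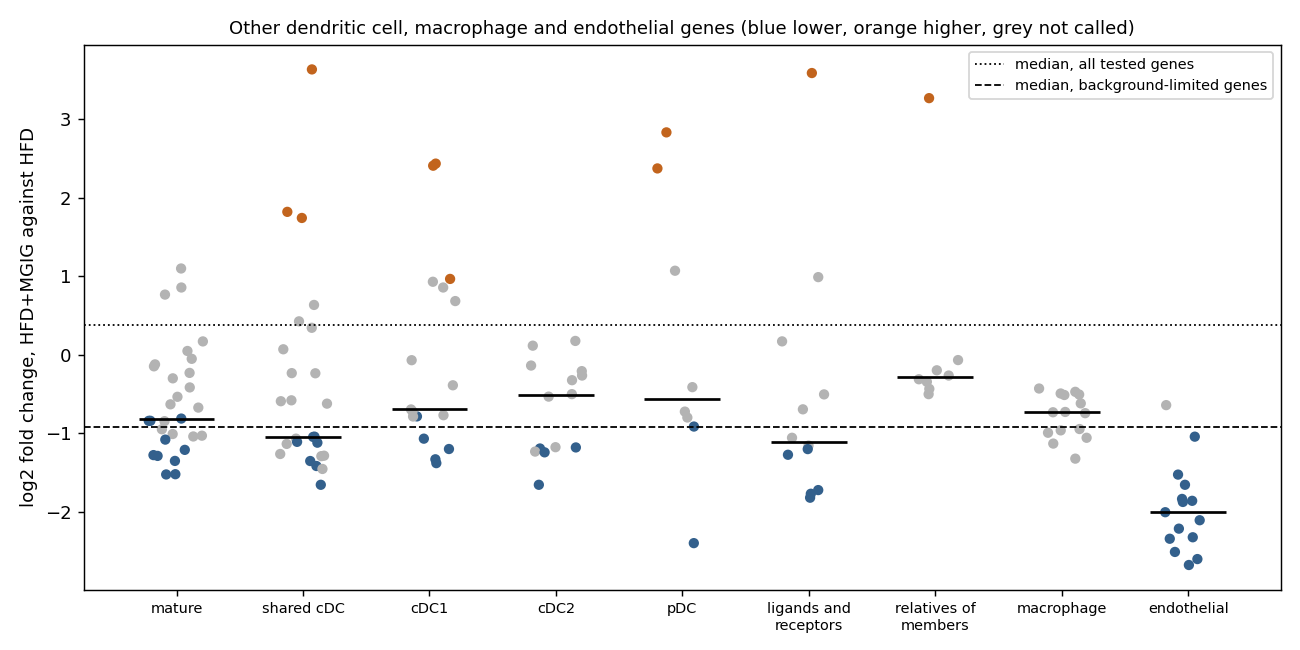
log2 fold change of HFD+MGIG against HFD for each tested gene (points) of 9 lists, coloured by its edgeR call, with a bar at the list median, a dotted line at the median of all tested genes and a dashed line at that of the background-limited genes. The median of the macrophage list lies at −0.73 and that of the endothelial list at −2.0.

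Genes of other cell types moved with the groups as well. Of 15 endothelial markers 14 were lower, and their summed level was 2987 to 3423 CPM in HFD and 598 to 1175 CPM in HFD+MGIG, with none at 0 in any library. Fscn1 per Cdh5, an endothelial cadherin gene, was 0.325 ± 0.106 in HFD and 0.239 ± 0.111 in HFD+MGIG and overlapped, unlike Fscn1 per Ccr7. Fscn1 was below its bound in every HFD+MGIG library, so the numerator of both ratios was not above background there. The HFD+MGIG mean of Cdh5, 21.0 CPM, was also below its mean bound of 26.9 CPM, while Ccr7 was above its bound in every library. Of 11 fibroblast markers 5 were lower, and their summed level was 2613 to 4044 CPM in HFD and 1363 to 2022 CPM in HFD+MGIG. The collagen genes Col1a1 and Col3a1 fell by 2.59 and 2.74 on the log2 scale (edgeR adjusted p = 0.00108 and 0.0014), and 3 of 6 fibroblast markers were lower in the fit of background-limited genes alone, as were 8 of 9 endothelial ones. Of 9 keratinocyte markers, Cd207 of Langerhans cells included, 7 were lower, and their sum was 424, 128 and 74.9 CPM in HFD 1, 2 and 3 and 33.2 to 58.7 CPM in HFD+MGIG. Fscn1 was likewise highest in HFD 1 but did not follow the order of HFD 2 and 3. The summed T cell markers were at 33.2 to 50.4 CPM in HFD and 41.0 to 110 CPM in HFD+MGIG, and the summed B cell markers at 364 to 414 and 296 to 347 CPM. In HFD+MGIG the summed bounds, above the sums in every library, were 168 to 345 CPM (T cell) and 172 to 353 CPM (keratinocyte). In HFD+MGIG 2 the summed bounds of endothelial and B cell markers, 814 and 354 CPM, were above the sums as well. A summed bound adds the upper bound of every gene, so a sum below it does not place the list at the level on silent families. In HFD+MGIG 2, 5 of 15 endothelial and 5 of 9 B cell markers were above their own bounds. Of 12 T cell markers 0, 1 and 0 were above their own bounds in HFD+MGIG 1, 2 and 3. Of 9 keratinocyte markers 0 were above their own bounds in each of these libraries. The part of these cells in the level of Fscn1 was not tested.

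The genes whose centred log2 CPM profile over the 6 libraries lay nearest to that of Fscn1 were Trp53i11, Smtn, Npr2, Col4a2 and Sema3f, among 9893 other protein-coding genes with a mean of at least 10 CPM. Their Euclidean distances were 0.886 to 1.16 on the log2 scale, while the nearest of the other 9 members, Ccr7, lay at 2.15 and Xcr1, the farthest, at 6.30. The 5 genes were picked by this distance in the same libraries. Their nearness and their difference between the groups therefore follow from the choice, and nothing is read from either. Trp53i11, the nearest, had 64.7, 57.2 and 49.9 CPM in HFD, against 10.4, 7.68 and 14.5 CPM in HFD+MGIG. Sema3f had 39.1 to 40.1 CPM in HFD and 4.52 to 9.18 CPM in HFD+MGIG. Smtn encodes a smooth muscle cytoskeletal protein and Col4a2 a basement membrane collagen, and all 5 genes had HFD+MGIG means below their bounds.

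**Figure D5:**
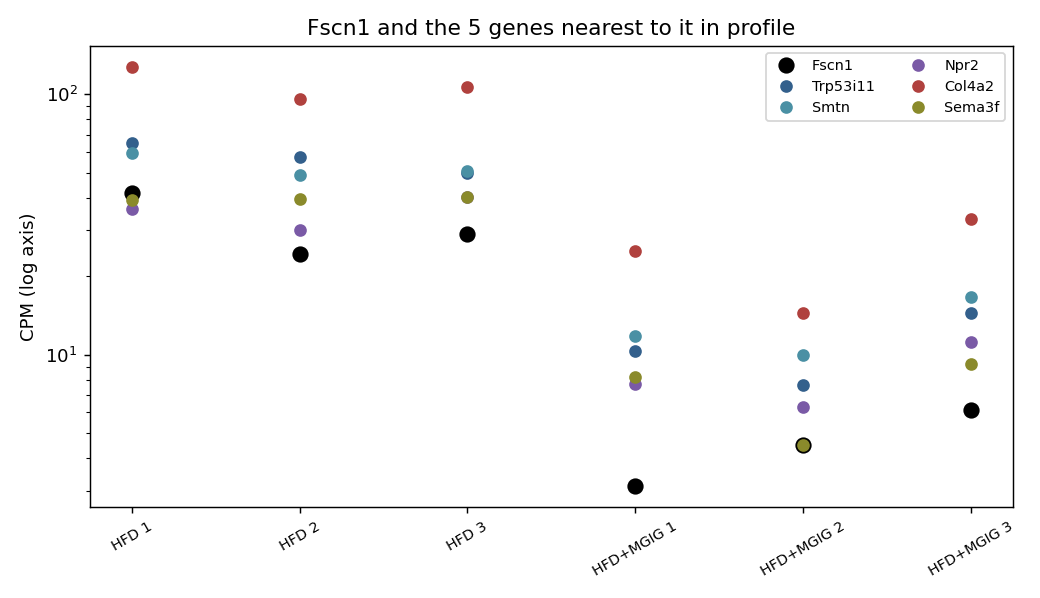
CPM (log axis) of Fscn1 (black, larger points) and of the 5 genes nearest to it in profile, in each library. All 6 genes are lower in each HFD+MGIG library than in any HFD library, which follows from choosing the 5 by their likeness to Fscn1.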

How the data were processed

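The deposited table holds estimated counts, with 33.3% to 41.8% of the genes detected in a library at fractional values. Tools named in the submitters' processing notes are StringTie, HISAT2 and fastp, with build mm10; no source used here gives their versions, the strand setting or the counting program. Libraries were made with a SMART-Seq v4 kit from 10 ng of RNA, per the labels' protocols. Counts were rounded, and symbols, positions and exon lengths were read from GENCODE M21 (mm10), where 51884 of 57180 IDs were found.

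edgeR 4.0.16 (R 4.3.3; quasi-likelihood, robust, TMM, filterByExpr) was run on all 6 libraries with group as the only term, Benjamini-Hochberg adjustment over all tested genes and a threshold of 0.05. CPM used library totals. Alternatives were other scalings and filters, DESeq2 1.42.0, limma 3.58.1 voom, a replicate block, background-limited genes on their own scale, background subtraction, thinning and each library left out. The fit was tested on simulated counts of 17066 genes, where 55% of genes changed 2 log2 units were recovered and 4% of those changed 1 unit. Both groups were drawn from HFD proportions with 200 genes changed, and 6 unchanged genes were called. The rise of silent-family reads in HFD+MGIG was not simulated, so the fit's behaviour under it was not tested.

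Members and gene lists were chosen with earlier results of these data known. Named genes were the members, up to 4 called genes per list, the sort genes, Cx3cl1 and the 5 nearest to Fscn1; the text names part of them, and Cd207 and Clec10a, with the Cd209a relatives, were added after their values were seen. Motifs and shared 50-base stretches were searched in RefSeq promoters and GENCODE transcripts.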

Additional observations from a re-analysis of the deposited data

How the results depend on the processing

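Fscn1 stayed lower and past the threshold in all 15 alternatives that tested it (the background-limited fit did not hold it). It was chosen for its difference in these same libraries, so this follows in part from the choice and is only a description. Ccr7 kept its direction in 16 alternatives and its side of the threshold in 13, Xcr1 kept its direction in 15 and its side in 14, and Batf3 was lower in 15 and past the threshold in 7. Ccl22 was past it in 4 alternatives. Members called lower numbered 4, and 2 with RLE size factors, library totals or thinning, 1 with at least 5 CPM in 3 libraries or with the median background subtracted, 0 on the background-limited scale, 5 with limma voom, and 2 to 4 as each library was left out (2 without HFD 1). Zbtb46, not called in the TMM fit, was lower with DESeq2, limma voom and without HFD+MGIG 2, and Cd209a lower and Flt3 higher with limma voom. Members called higher numbered 1, and 2 with limma voom and 0 on the background-limited scale or with the background subtracted. Other dendritic cell genes called lower numbered 33, and 14 with at least 5 CPM or with the background subtracted, 50 with limma voom, 1 on the background-limited scale, 13 after thinning, and 19 to 45 without 1 library (19 without HFD 3, 21 without HFD+MGIG 3). Those called higher numbered 10, and 3 and 4 on the background-limited scale and with the background subtracted. Over all genes 4109 were lower, and 2529 with library totals, 1753 with at least 5 CPM, 6888 with limma voom, 163 on the background-limited scale, 1746 with the background subtracted, 1496 after thinning and 2126 to 5559 without 1 library (2549 without HFD 2, 2134 without HFD 3, 2126 without HFD+MGIG 3). The 9902 higher genes became 18271 with no filter, 4550 with at least 5 CPM, 117 on the background-limited scale, 3513 with the background subtracted and 4880 after thinning. Fewer genes were tested with the stricter filter (14775), thinning (15481), subtraction (16485) and the background-limited set (2604) than the 23053 of the TMM fit. Of the 10 members, 8 were tested with at least 5 CPM and after thinning, and 3 on the background-limited scale. Calls over all genes moved between settings too, so nothing is read from the changes in member counts. Other causes were not tested. Above the median of silent families, in place of the 90th percentile, 7 members lay in all 3 HFD+MGIG libraries.

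Signs reversed on the background-limited scale for Ccl22 (0.22), Cd209a (0.30), Cd209d (0.47), Clec10a (0.75), Bst2 (0.0046) and the macrophage gene Lyz2 (0.41). With the median background subtracted they reversed for Cd209a (0.17), Cd209d (0.36), Clec10a (0.68), Lyz2 (0.34), Flt3 (−0.31), Clec9a (−2.58) and Runx2 (−0.40). Clec10a also had 0.12 with library totals, 0.20 with at least 5 CPM, 0.20 after thinning and −0.58 to 0.19 without 1 library (0.19 without HFD+MGIG 2). Ccl17 had −0.14 with no filter and −0.45 to 0.87 without 1 library, and Clec9a −0.10 with no filter, −0.025 with the replicate block and −0.41 to 0.42 without 1 library. With the replicate number as a block the calls were 4 members lower, 33 other dendritic cell genes lower and 4307 genes lower; deviations of same-numbered libraries correlated at 0.0476, 0.259 and 0.0792, and 1 of 3 HFD libraries correlated best with its own number, so the numbers were not taken as pairs. Depth limits Ccl17, Clec9a and Xcr1, at 14 to 56 counts in HFD.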

Other observations

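Cd209c, a relative of Cd209a, rose from 13.7 ± 2.34 to 173 ± 96.2 CPM with MGIG, a log2 fold change of 3.26 with SE 0.416 (edgeR adjusted p = 0.0001). Its values were 13.2, 16.3 and 11.7 CPM in HFD 1, 2 and 3 and 87.5, 277 and 155 CPM in HFD+MGIG 1, 2 and 3, higher in 3 of 3 libraries, and its mean bound in HFD+MGIG was 12.8 CPM. It was also higher on the background-limited scale (4.59, SE 0.714, edgeR adjusted p = 0.0137). Of the 50-base stretches of its transcripts, 15.7% also occur in transcripts of 36 other genes and the part of those genes in its counts was not tested; its highest value was in HFD+MGIG 2, the library with the most silent-family reads. Cd209d had 173 ± 5.68 and 149 ± 38.7 CPM (−0.50, edgeR adjusted p = 0.279) and was higher on the background-limited scale (0.47, edgeR adjusted p = 0.0424).

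Cd207, the Langerhans cell lectin langerin, fell from 2.34 ± 0.571 to 0.530 ± 0.352 CPM (edgeR adjusted p = 0.013), a low level in both groups, and Krt14, a keratin of basal epidermis, fell from 43.8 ± 34.7 to 3.03 ± 2.60 CPM (edgeR adjusted p = 0.000429).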
